A study of Ovis aries with 16 samples.

Results

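The regions described here are the methylated stretches of fetal sheep muscle DNA that lie close to the differentially methylated regions (DMRs) listed by the study, without being part of them. Coordinates of the 60 DMRs were taken from the list, 58 of them on autosomes. The peaks of 16 fetuses were merged where they shared at least 1 bp, and those merged from 2 or more fetuses are called consensus regions. A flank region is an autosomal consensus region that lies within 50000 bp of a DMR and overlaps none of the DMRs. There were 1202 of them, out of 493190 autosomal and 512238 consensus regions in all (Oar_v3.1). The DMRs were chosen by the study on the hay against corn difference in these same fetuses, so the values at the DMRs are given as a description, without a test. The question for the flanks was how far from a DMR a difference between the diets could still be seen.

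Longissimus dorsi (LD) muscle, the long muscle of the back, was taken from fetuses of Polypay ewes given either a hay diet, as alfalfa haylage, or a corn diet from mid-gestation until the fetuses were collected late in gestation. From 8 hay and 8 corn fetuses, DNA bound by a methyl-binding domain protein was sequenced and searched for peaks, each fetus on its own. The corn diet was limit-fed and held a supplement and some haylage, so the groups differ in the whole ration. In the study's list of pools, all 8 hay fetuses were pairs of twins, and most corn fetuses shared a dam with a twin. Each diet thus had fewer dams than fetuses, and the diet was given to the dam. Neither the dam, the sex nor the sequencing lane is given for the numbered samples, so fetuses that shared a dam could not be grouped. SDs, intervals and p-values over fetuses treat them as independent and may be too small.

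DNA methylation in mammals is placed mainly on cytosines followed by guanine, and most of these sites outside active promoters and enhancers carry it. Neighbouring sites are often methylated together, because the enzymes that set and copy the mark act along a stretch of DNA. The methyl-binding domain holds sheared fragments that carry several methylated sites, so a peak reports a local density of methylated sites rather than the percentage methylated at 1 site. The height of such a signal depends on the number of sites in the fragment as well as on their methylation.

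The deposited files give 1 number per peak, taken here for the p-value of the peak. The score used here is −log10 of it, scaled between fetuses, and all levels below are log2(score + 1), with 0 where a fetus had no peak. A difference is the mean of the 8 hay fetuses minus the mean of the 8 corn fetuses on that scale. Fetuses had between 261331 and 519923 peaks. Hay 11 and hay 10 had the fewest, and a peak was found in 432 flanks in hay 11 and 518 in hay 10, against 580 to 837 in the other hay fetuses and 540 to 834 in the corn fetuses. The depth of sequencing is unknown, and a missing peak can mean few reads as well as little methylation.

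The 58 autosomal DMRs comprised 36 that were higher in hay and 22 that were higher in corn by their own peaks, with absolute differences from 0.22 to 1.10 and a median of 0.62. The study listed 21 of all 60 DMRs as higher in corn, fewer than these 22, so at least 1 direction here is opposite to the study's. A direction taken from peaks is uncertain where the difference is small and may be the other by read counts. The smallest was -0.22 at chr1:77714761-77715717, where 10 of 19 flanks had its sign. Beside them, the flanks differed little between the diets. The median flank difference, taken in the direction of the nearest DMR, was 0.026, and 659 of 1202 flanks (54.8%) had the sign of their DMR. No flank region passed the threshold of an adjusted p of 0.1 in the limma fit over all consensus regions. The smallest adjusted p among them was 0.919, and 3 of 493190 autosomal regions (0.000608%) passed. At an unadjusted limma p under 0.05 there were 39 flanks (3.24%), beside 3.17% of all autosomal regions. Of these 39, 21 were higher in hay (1.75% of flanks, beside 1.43% of autosomal regions) and 18 were higher in corn (1.5%, beside 1.74%). The share of flanks with a nominal difference was thus close to that of the autosomes as a whole. It rose in both without the fetuses with the fewest peaks, to 68 flanks (5.66%, beside 5.32% of autosomal regions) without hay 11 and to 102 (8.56%, beside 8.40%) without hay 10 and hay 11, and 0 flanks had an adjusted p under 0.1 in either case. The absolute difference had a median of 0.160 in the flanks and 0.158 over the autosomes.

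The absence of a call is a weak statement where a difference is poorly measured. The limma standard error of a flank difference, which draws on the spread of all regions, had a median of 0.25. For 738 of the 1202 flanks (61.4%) the upper bound of the 95% limma interval, in the direction of the DMR, was below the difference of the DMR itself, an error of the DMR value not being included. In the remaining flanks the interval reached the difference of the DMR. The share was highest where every fetus had a peak, at 190 of 207 flanks (91.8%), and lowest for flanks with a peak in 5 to 11 fetuses, at 135 of 355 (38.0%). By distance it was 32 of 64 flanks (50%) up to 2000 bp. Outside the flanks it was 792 of 1241 regions (63.8%) between 50000 and 100000 bp, and 1514 of 2368 (63.9%) between 100000 and 200000 bp. The share was thus not particular to the flanks. The DMR differences it was set against were themselves chosen on this contrast and may be too large.

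Differences were ordered by the distance between the edge of the flank and the edge of the DMR. Up to 2000 bp there were 64 flanks, of which 38 (59.4%) had the sign of the DMR, with a median of 0.051. Between 2000 and 5000 bp the share was 42 of 74 (56.8%) and the median 0.030. From 5000 to 10000 bp 71 of 136 flanks (52.2%) had the sign of the DMR, with a median of 0.013. The next class, up to 20000 bp, had 128 of 239 (53.6%) and 0.014. From 20000 to 50000 bp the share was 380 of 689 (55.2%) and the median 0.027. Outside the flanks, 623 of 1241 regions (50.2%) between 50000 and 100000 bp and 1275 of 2368 (53.8%) between 100000 and 200000 bp had the sign of the DMR. The share did not fall steadily with distance. In every class the quartiles lay on both sides of 0, from -0.058 to 0.29 in the nearest class, and the median was far below the DMR median of 0.62.

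**Figure D1:**
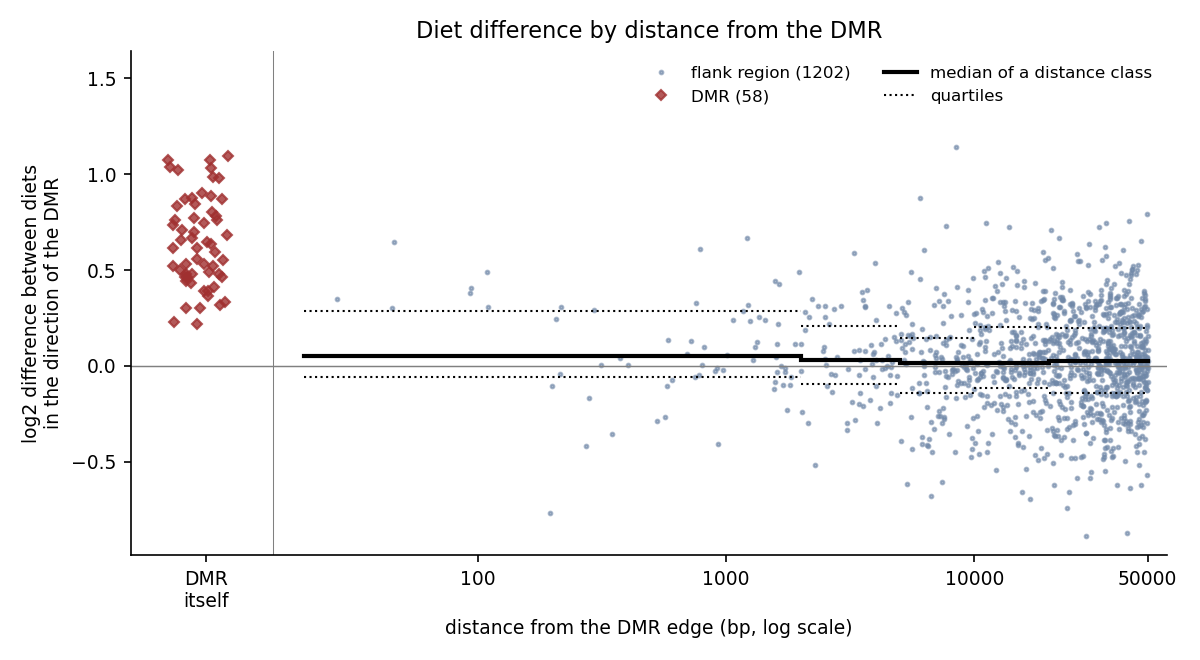
Difference between the diets, log2 scale and in the direction of the DMR (vertical axis), against the distance from the DMR edge in bp (log scale). Diamonds are the 58 autosomal DMRs, spread sideways for visibility, dots the 1202 flanks, thick lines the medians and dotted lines the quartiles of a distance class. The class medians stay between 0.013 and 0.051, while the DMRs lie between 0.22 and 1.10.

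The same measure was taken around every autosomal region as a background. Over all ordered pairs of autosomal regions up to 2000 bp apart, 54.5% shared the sign of the diet difference, and the share was 50.9% from 2000 to 5000 bp and 50.7% from 5000 to 50000 bp in each class. Neighbouring regions thus shared a sign somewhat more often than not at the shortest distance, anywhere on the autosomes. A closer background is given by the 8541 regions, more than 50000 bp from any DMR, that differed at least as much as the median DMR. Around these, 57.6% of regions up to 2000 bp away had the sign of the centre (9188 pairs), with a median of 0.039. The flanks of the DMRs had 59.4% and 0.051 over 64 regions. From 2000 to 5000 bp the shares were 51.5% in that background and 56.8% at the DMRs, and from 20000 to 50000 bp 50.8% and 55.2%. Regions around 1 DMR share fetuses and sometimes reads, so these shares were not tested.

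**Figure D2:**
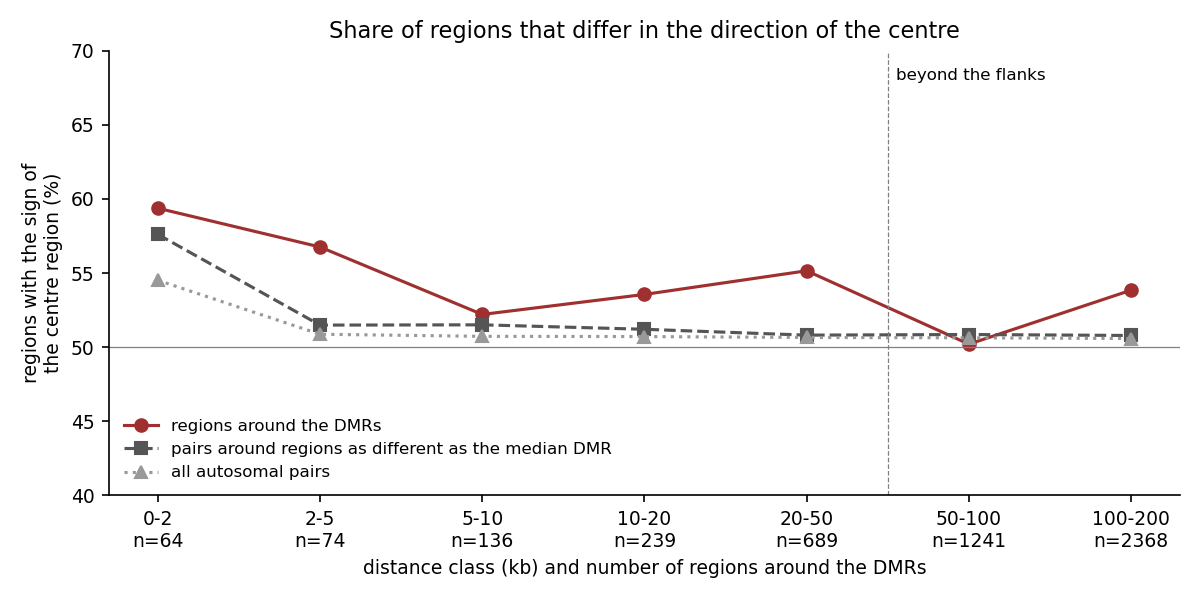
Percentage of regions with the sign of their centre (vertical axis, from 40 to 70%) by distance class in kb, with the number of regions around the DMRs under each class. Circles are regions around the 58 DMRs, squares regions around the 8541 centres that differ as much as the median DMR, and triangles all autosomal pairs; the circles start at 59.4%, beside 57.6% and 54.5%.

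The 2 kinds of DMR were also taken separately. Around the DMRs higher in hay, 471 of 805 flanks (58.5%) were higher in hay, where 53.9% of all autosomal regions were. Around the DMRs higher in corn, 188 of 397 flanks (47.4%) were higher in corn, beside 46.1% of all autosomal regions. Up to 2000 bp the counts were 31 of 45 flanks (68.9%) higher in hay beside hay DMRs and 7 of 19 (36.8%) higher in corn beside corn DMRs. The flank nearest to a DMR on either side was in the direction of the DMR in 45 of 71 cases (63.4%) at hay DMRs and in 20 of 42 (47.6%) at corn DMRs. These nearest flanks lay 27 to 29788 bp away, with a median of 2468 bp. The difference between the 2 kinds of DMR was not tested.

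These shares depend on how the scores were made comparable between fetuses. Without scaling, 40.3% of autosomal regions and 43.3% of flanks were higher in hay, in place of 53.9% and 56.6%, and the median of all autosomal differences moved from 0.016 to -0.048. Up to 2000 bp, 55.6% of flanks of hay DMRs were then higher in hay and 57.9% of flanks of corn DMRs higher in corn, so that the direction around the corn DMRs turned. That direction, at 19 flanks, also turned when 1 fetus was left out: it was 52.6% without corn 1 or corn 2, 57.9% without corn 9 or corn 13, 61.1% without corn 14 and 52.9% without hay 15. Over both kinds of DMR, the share with the sign of the DMR up to 2000 bp was 56.25% without scaling, in place of 59.4%. With 1 fetus left out it ran from 54.8% to 67.2%. It was 47.5% of 40 flanks without the weakest 25% of peaks. Asking for a peak in at least 3 or 8 fetuses gave 52.1% of 48 and 30% of 10. The remaining alternatives, presence of a peak aside, gave 55.3% to 64.3%. The share was thus not always above the 57.6% of the closer background, which was taken without these changes.

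Averaged over regions, each fetus gave 1 value for the DMRs and 1 for their flanks. At the 36 DMRs higher in hay the mean level was 0.66 ± 0.31 (SD, n = 8) in hay and 0.077 ± 0.027 (SD, n = 8) in corn, and the ranges, 0.27 to 1.106 and 0.047 to 0.12, did not overlap, as follows from the choice of these DMRs. In the 805 flanks of the same DMRs the mean level was 0.85 ± 0.17 (SD, n = 8) in hay and 0.80 ± 0.12 (SD, n = 8) in corn. The lowest, median and highest hay fetus had 0.59, 0.88 and 1.09, and the corn fetuses 0.68, 0.78 and 1.01, so the corn range lay inside the hay range. Hay 11 was lowest and hay 15 highest, the same order as in their mean level over all autosomal regions, 0.56 and 1.05. In the flanks up to 2000 bp the means were 0.85 ± 0.22 (SD, n = 8) in hay and 0.71 ± 0.12 (SD, n = 8) in corn. There the hay fetuses ran from 0.61 through a median of 0.81 to 1.28 and the corn fetuses from 0.62 through 0.67 to 0.98. Both ranges overlapped over most of their length. The difference of 0.14 was smaller than the SD among the hay fetuses, 0.22, and larger than that among the corn fetuses, 0.12.

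At the 22 DMRs higher in corn the mean level was 0.36 ± 0.093 (SD, n = 8) in hay and 1.10 ± 0.14 (SD, n = 8) in corn. Their 397 flanks had 0.77 ± 0.17 (SD, n = 8) in hay and 0.75 ± 0.13 (SD, n = 8) in corn, a difference of 0.012 in the direction opposite to the DMRs. The flanks up to 2000 bp had 0.83 ± 0.18 (SD, n = 8) and 0.80 ± 0.066 (SD, n = 8). In both diets the flanks of hay DMRs, and the flanks of corn DMRs, were at about the level of the autosomes, which was 0.82 ± 0.17 (SD, n = 8) in hay and 0.80 ± 0.13 (SD, n = 8) in corn.

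**Figure D3:**
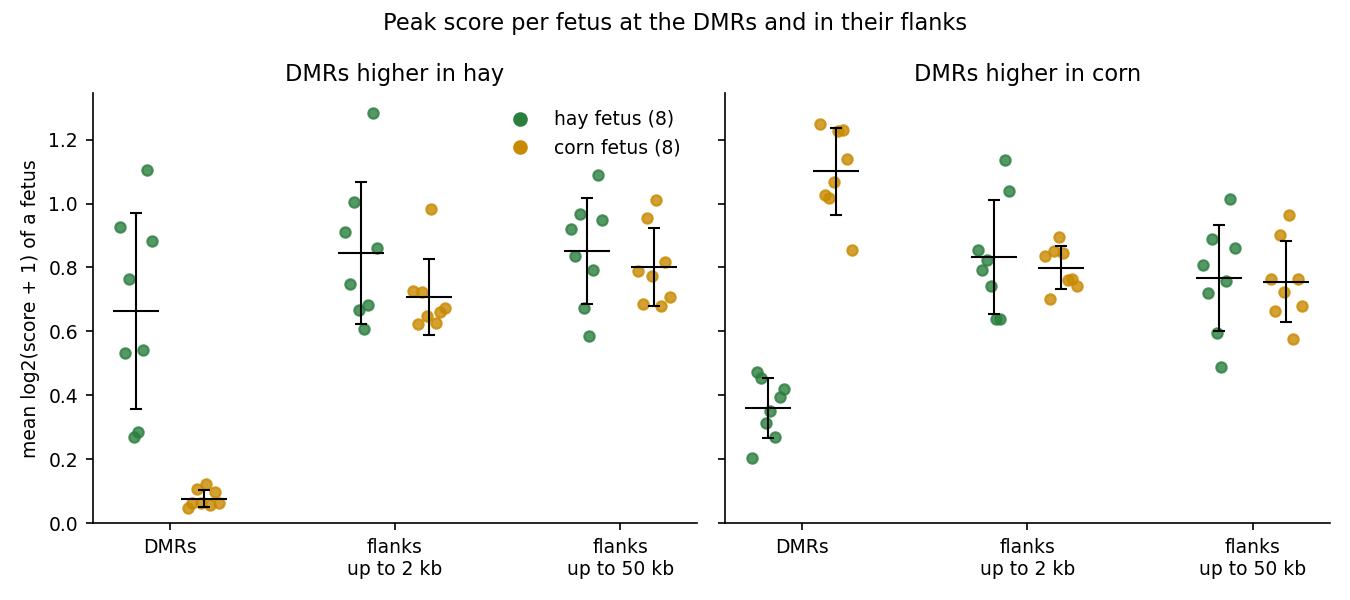
Mean level of each fetus, as log2(score + 1), at the DMRs and in their flanks up to 2 kb and up to 50 kb, for DMRs higher in hay (left) and higher in corn (right). Points are fetuses (8 per diet), black bars the mean and SD; the diets separate at the DMRs, which were selected for it, and overlap in the flanks.

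Flanks resembled ordinary methylated regions in ways that the rule did not use. At the median, a flank had a peak in 8 fetuses and was 779.5 bp wide, beside 8 fetuses and 768 bp for all autosomal regions. A peak in all 16 fetuses was found in 17.2% of flanks and 17.5% of autosomal regions, and a peak in just 2 fetuses in 15.4% and 15.9%. The 60 autosomal consensus regions at the DMRs had peaks in fewer fetuses, 4 at the median, with a median width of 690 bp, and 1 of the 60 had a peak in all 16. The 57 DMRs with flanks of their own had 6 to 47, with a median of 19. The DMR at chr7:95668026-95668781 had none of its own, as the 26 regions within its reach lay nearer to another DMR. Across the 57 DMRs the median difference of a DMR's flanks ran from -0.084 to 0.18 in the direction of the DMR and was above 0 for 34. Within reach of more than 1 DMR lay 48 flanks, and each was counted with the nearest. At the edge of the rule, the last 3 flanks inside, 49954 to 49964 bp away, differed by -0.084, -0.086 and 0.026, and the first 3 regions outside, 50030 to 50138 bp away, by 0.16, 0.00078 and -0.16.

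The flanks were then split by the number of fetuses with a peak. Those with a peak in all 16 had a median absolute difference of 0.081 and a largest of 0.37, and 107 of 207 (51.7%) had the sign of the DMR. Those with a peak in 5 to 11 fetuses had a median absolute difference of 0.22, and 209 of 355 (58.9%) had the sign of the DMR. At an unadjusted limma p under 0.05 there were 7 of the former (3.38%, beside 2.64% of autosomal regions of that kind) and 14 of the latter (3.94%, beside 2.96%).

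The closest flanks were examined for peaks of a single diet. Among the 64 flanks up to 2000 bp, 5 (7.81%) had a peak in at least 3 hay fetuses and in 0 corn fetuses, where 1.50% of all autosomal regions and 23 of the 1202 flanks (1.91%) did. None of the 64 had the reverse pattern, which 16 flanks (1.33%) and 0.849% of autosomal regions had. The 5 regions were singled out after their values were seen. Hay 15, the hay fetus with the most peaks, had a peak in each of them. The count fell to 1 of 56 without hay 15, and to 3 of 64 without hay 5 or 3 of 60 without hay 8. When peaks up to 250 bp apart were merged it was 1 of 47; 3 of the 5 lay closer than that to their DMR. Without the weakest 25% of peaks it was 2 of 47.

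A flank at chr1:74944549-74944819 ended 46 bp before the chromosome 1 DMR that starts at 74944865. Its level was 1.21 in hay 3, 1.13 in hay 10, 1.56 in hay 15 and 1.27 in hay 16, and 0 in the other hay and all corn fetuses. All 4 of these fetuses also had a peak at the DMR. The difference was 0.65 [95% limma interval 0.066, 1.23], beside 0.84 at the DMR, and was 0.337 without the weakest 25% of peaks. The flank at chr23:53659806-53660146, 109 bp before its DMR, had 1.005 in hay 5, 1.45 in hay 12 and 1.47 in hay 15 and 0 elsewhere, and the same 3 fetuses had the peak of the DMR. At chr6:43407995-43408284, 94 bp before a DMR, the peaks were those of hay 5, hay 8 and hay 15, of which 2 also had the DMR peak. These gaps are shorter than the sheared fragments, so a single fragment can contribute to the flank and to the DMR.

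RAPGEF5 encodes an exchange factor that activates Rap GTPases, small switches of cell adhesion and traffic. A flank within the gene at chr4:30916604-30917303, 784 bp before its DMR, had a level of 1.17 in hay 3, 1.35 in hay 8, 1.24 in hay 15 and 1.12 in hay 16 and 0 in the other 12 fetuses. At the DMR, 4 hay fetuses and 1 corn fetus had a peak, and 3 fetuses had a peak at both. The difference was 0.61 [95% limma interval 0.051, 1.17] in the flank and 0.46 at the DMR. Without hay 15 the flank difference was 0.347. The last of the 5 lay 272 bp after a chromosome 9 DMR that was higher in corn, at chr9:14336084-14336336. Its peaks were in hay 3, hay 8 and hay 15 and in no corn fetus, the opposite of the DMR, with its peaks in 8 corn and 2 hay fetuses. For each of these 5 regions the adjusted limma p was 0.919.

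The strongest difference in any flank was also a set of hay fetuses. At chr11:5774241-5774803, 8414 bp before the chromosome 11 DMR at chr11:5783217-5783701, hay 10, hay 11 and hay 16 had levels of 3.16, 2.85 and 3.13, and the other 13 fetuses had 0. The same 3 fetuses, and no other, had a peak at the DMR, with 1.93, 1.49 and 1.35. The flank level was thus higher than that of the DMR in each of the 3. The difference was 1.14 [95% limma interval 0.34, 1.94], beside 0.60 at the DMR, with an unadjusted limma p of 0.00546 and an adjusted p of 0.919. The limma standard error was 0.40, while the SD was 1.58 among the hay fetuses and 0 among the corn fetuses. This interval and p thus rest also on the spread of other regions, and the hay fetuses alone vary more. Hay 10 and hay 11 were the fetuses with the fewest peaks. Among the 22 flanks of this DMR, 2 others had peaks in none but these fetuses, as was seen after the window had been plotted. The flank 759 bp before the DMR had 0.9996 in hay 11 and 1.62 in hay 16, and the flank 12375 bp after it had 1.44 in hay 10 and 1.68 in hay 16. Peaks of the 3 fetuses and of others alternated with these. The flank 1216 bp before the DMR, for example, had 1.69, 1.58 and 2.68 in hay 10, hay 11 and hay 16, 1.33 in hay 3, 0.91 in corn 1 and 1.04 in corn 7. The flank 7932 bp before it had none of the 3 and peaks in 2 other hay and 4 corn fetuses. In all, 12 of the 22 had the sign of the DMR.

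**Figure D4:**
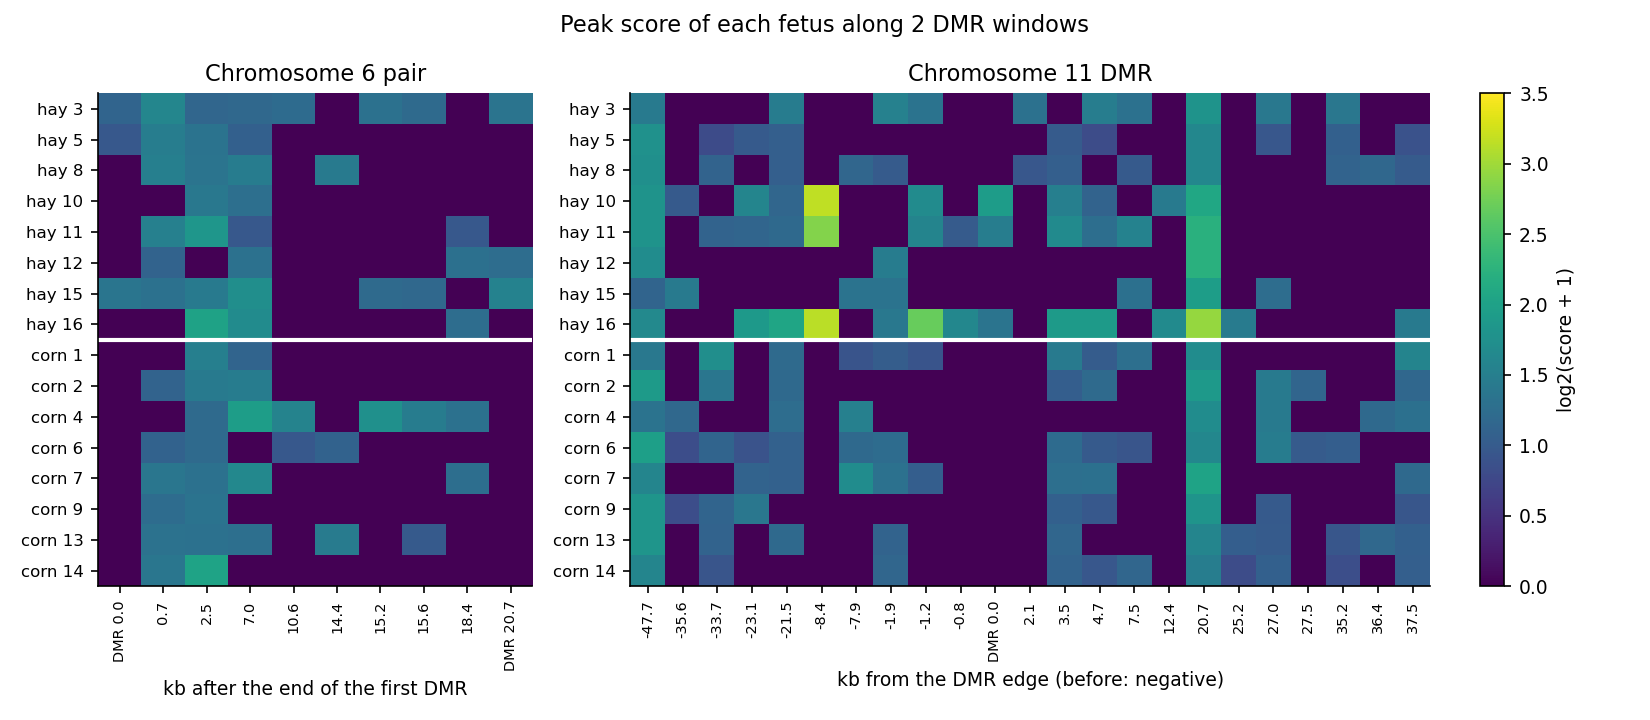
Level of each fetus, as log2(score + 1) by colour, in consecutive consensus regions (columns, labelled by distance in kb) of the chromosome 6 DMR pair (left) and the chromosome 11 DMR (right). Hay fetuses are above the white line and corn fetuses below it; the column 8.4 kb before the chromosome 11 DMR is bright in hay 10, hay 11 and hay 16 and dark in all others.

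Both chromosome 6 DMRs shown there were higher in hay, each by peaks in 3 hay and 0 corn fetuses, and 20.7 kb of sequence separate them. Hay 3 and hay 15 had both peaks, hay 5 had the peak of the first and hay 12 that of the second. Of the 8 consensus regions between them, 4 differed in the direction of the DMRs and 4 in the other. The region after the first DMR, at chr6:43409415-43410340, had a peak in 6 fetuses of each diet, with a level of 1.12 to 1.61 in the hay peaks and 1.10 to 1.37 in the corn peaks. The next, at chr6:43411241-43412252, had a peak in every fetus except hay 12. The region at chr6:43415704-43416563 had a peak in all 8 hay fetuses and 5 corn fetuses, and the largest difference of the 8, 0.41 [95% limma interval -0.10, 0.91], which was -0.0243 without the weakest 25% of peaks. In the remaining 5, 1 to 3 hay and 1 to 2 corn fetuses had a peak, and the differences ran from -0.16 to 0.12. Corn 4 had a peak in 4 of these 5. All corn fetuses lacked a peak at both DMRs, and each had at least 1 between them.

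Chromosome 7 held DMRs of both directions within a short distance. Between a DMR higher in hay at chr7:95657054-95657741 and a DMR higher in corn at chr7:95668026-95668781 there was 1 consensus region, chr7:95662336-95662806. It had a level of 1.01 in hay 15, 1.43 in corn 4 and 1.12 in corn 13 and 0 elsewhere, a difference of -0.19 [95% limma interval -0.68, 0.29]. No consensus region lay between the corn DMR and the next hay DMR at chr7:95671807-95672416, so these DMRs of opposite direction are neighbours in the list of methylated regions.

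Perilipins coat lipid droplets in muscle and fat cells, and PLIN5 and PLIN4 are neighbours in the sheep genome, flanked by LRG1 and HDGFL2 (gene order of ARS-UI_Ramb_v3.0). The DMR at chr5:17188921-17189308 lay between listed genes and had a level of 1.60 in hay 3, 1.20 in hay 8 and 1.67 in hay 15, and 0 elsewhere. Its nearest flank, 110 bp before it, had 1.12 in hay 8 and 1.32 in hay 15 and 0 elsewhere, a difference of 0.30 [95% limma interval -0.10, 0.71]. On the other side the nearest flank was 7663 bp away, at chr5:17196971-17198314 within PLIN4. It had a peak in all 16 fetuses, from 1.44 through a median of 1.96 to 2.13 in hay and from 1.48 through 1.90 to 2.37 in corn. The difference there was -0.053 [95% limma interval -0.33, 0.22], whose upper bound is below the 0.56 of the DMR. Of the 37 flanks of this DMR, 17 had its sign and 0 had an unadjusted limma p under 0.05.

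LPAR3 encodes a receptor for lysophosphatidic acid, a signalling phospholipid. Its DMR at chr1:61263544-61264351, within the gene, had a peak in hay 8, hay 10, hay 15 and hay 16. The nearest flanks, 7491 bp before and 6387 bp after it and both within LPAR3, each had a peak in 3 fetuses. The former had 1.24 in hay 15, 1.31 in corn 4 and 1.68 in corn 7, and the latter 1.15 in hay 8, 1.20 in hay 15 and 1.24 in corn 7. Their differences were -0.22 [95% limma interval -0.76, 0.32] and 0.14 [95% limma interval -0.35, 0.63], in place of 0.61 at the DMR. Of the 14 flanks of the LPAR3 DMR, 6 had its sign, and the median was -0.066.

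PLCB4 encodes a phospholipase C, an enzyme that splits a membrane phospholipid into second messengers. The nearest flanks of its DMR lay 2009 bp before it, with 1.28 in hay 16 and 1.50 in corn 4, and 3840 bp after it, with 0.94 in hay 8, 1.01 in hay 11 and 1.09 in corn 2. All others had 0. The differences were -0.026 [95% limma interval -0.47, 0.41] and 0.11 [95% limma interval -0.34, 0.55], beside 0.46 at the DMR. A flank 24066 bp after the DMR and still within PLCB4, at chr13:1857169-1858078, was among those with the smallest p and was higher in corn. Every corn fetus had a peak there, from 1.17 through a median of 1.45 to 1.82, and 5 hay fetuses had one, at 1.10 to 1.57. The difference was -0.66 [95% limma interval -1.14, -0.17].

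ADAMTS12 is a secreted metalloprotease that cuts matrix proteins, and its DMR was higher in corn by 0.87. The flank 8822 bp before it, within the gene, had a peak in all 8 corn fetuses, from 1.05 to 1.69, and in 7 hay fetuses, from 1.15 to 1.94, hay 15 being the exception. The flank 6250 bp after it had a peak in 4 fetuses of each diet. The differences were -0.11 [95% limma interval -0.53, 0.31] and 0.047 [95% limma interval -0.68, 0.77].

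The lincRNA ENSOARG00000025638 overlaps PDXK, the kinase that activates vitamin B6, and its DMR was higher in corn by 0.70. The flanks 1245 bp before and 1066 bp after it differed by -0.23 [95% limma interval -0.76, 0.30] and -0.24 [95% limma interval -0.94, 0.47]. In the former all 8 corn fetuses had a peak, at 0.96 to 1.73, and 5 hay fetuses had one at 1.29 to 1.73. In the latter 5 corn and 3 hay fetuses had a peak. Neither value was stable. The former was -0.0975 without hay 3, -0.098 without hay 10, -0.102 without hay 11, 0.0753 without hay 10 and hay 11 and 0.154 without the weakest 25% of peaks. The latter was -0.151 without corn 2, -0.359 without hay 10 and -0.00151 without the weakest 25% of peaks. A flank 20890 bp after the DMR, at chr1:261884275-261885743 and within the same lincRNA, differed by 0.62 [95% limma interval 0.15, 1.10]. It had a peak in 8 hay and 6 corn fetuses.

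**Figure D5:**
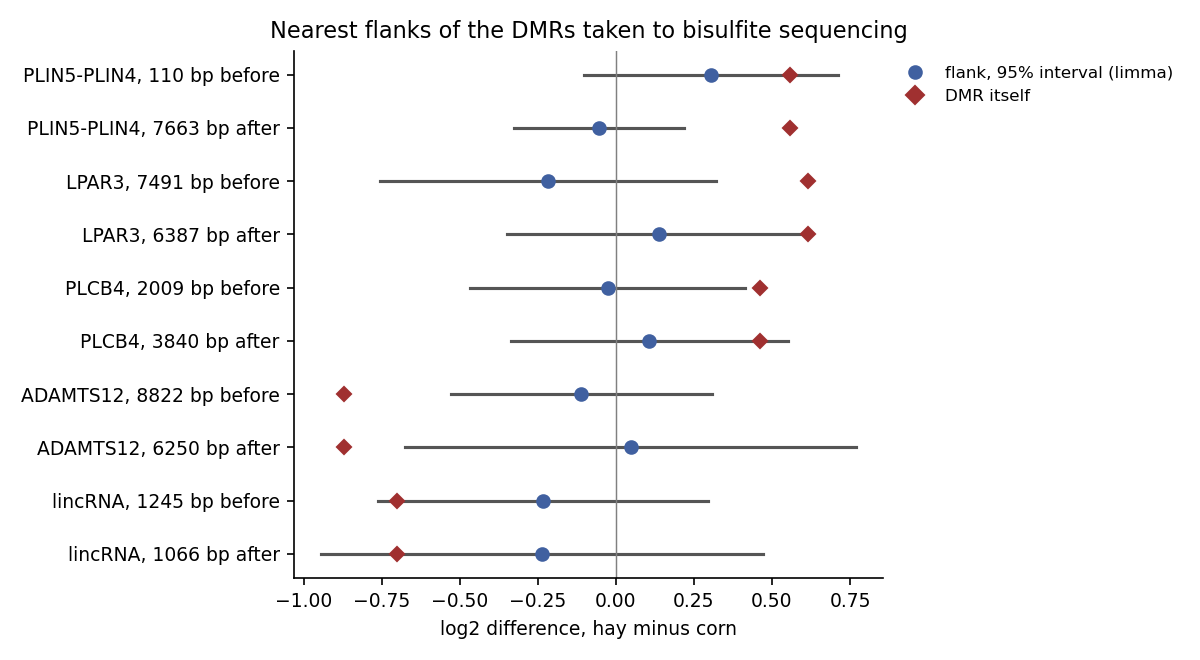
Difference between the diets, hay minus corn on the log2 scale, in the nearest flank on each side of 5 DMRs (circles, with 95% limma intervals) and at the DMR itself (diamonds, without interval). Every interval includes 0, and 5 of the 10 end short of the DMR value.

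Of the 10 nearest flanks of these 5 DMRs, 7 changed sign under at least 1 alternative or with a fetus left out, so no direction is read from them. The DMR differences themselves were not all found by the paper's bisulfite sequencing of pooled DNA. It found a significant diet difference at the LPAR3 and lincRNA DMRs. At PLIN5-PLIN4 the level over the DMR differed between the female pools alone, and at ADAMTS12 and PLCB4 no significant difference was found.

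The flanks with the smallest p were not arranged by the direction of their DMR. Of the 5 higher in hay with the smallest p, 2 lay beside DMRs higher in corn, and of the 5 higher in corn, 3 lay beside DMRs higher in hay. None of the 10 passed the adjusted threshold. The smallest p of all, 0.00243 unadjusted (limma), belonged to a region 23699 bp before a chromosome 15 DMR that was higher in hay by 0.63. There, at chr15:72896677-72898224, all 8 corn fetuses had a peak, from 1.34 through a median of 1.51 to 1.97, and 5 hay fetuses had one, at 1.08 to 1.67. The difference was -0.74 [95% limma interval -1.21, -0.27]. At chr7:95688015-95688876, 15599 bp after the last DMR of the chromosome 7 group, the difference was -0.66 [95% limma interval -1.14, -0.18], with peaks in all 8 corn and in 5 hay fetuses.

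Regions methylated in every fetus also appeared among them. TBC1D5, which regulates a Rab GTPase of endosomes, had the most flanks, 47. The one at chr1:272407482-272408546, within the gene and 11046 bp after the DMR, had a level of 1.66 to 2.34 in hay with a median of 1.86, and of 0.97 to 1.89 in corn with a median of 1.68. The ranges overlapped, with corn 9 lowest, and the difference was 0.34 [95% limma interval 0.050, 0.64], or 0.187 without scaling. NBEA encodes neurobeachin, a protein of membrane traffic. A flank within it, 37775 bp before a DMR higher in corn, had a level of 1.63 to 2.48 in hay with a median of 1.85, and of 1.73 to 2.75 in corn with a median of 2.27. Hay 10 had the highest hay value, and the difference was -0.37 [95% limma interval -0.62, -0.11]. At chr6:36865356-36867174, before a chromosome 6 DMR higher in corn, it was -0.34 [95% limma interval -0.58, -0.10], or -0.519 without scaling. Both of these had the sign of their DMRs.

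The flanks with the widest gap in the number of fetuses followed the DMR in 3 of 5 cases. At chr6:36878768-36879653, 6054 bp before the DMR at chr6:36885707-36886482, a peak was called in 7 corn and 2 hay fetuses, and at the DMR in 6 corn fetuses and 1 hay fetus. The number of fetuses with a peak at both was 7, and the difference was -0.87 [95% limma interval -1.56, -0.19], beside -0.89 at the DMR. On chromosome 9, 0 hay and 5 corn fetuses had a peak at chr9:614427-615117, 41846 bp after a DMR that was also higher in corn, and 2 fetuses had a peak at both. At chr14:6485265-6486443, 7 hay and 2 corn fetuses had a peak, 49614 bp from a DMR higher in hay, but its difference of 0.79 was 0.00598 when peaks up to 250 bp apart were merged. The remaining cases ran against the DMR. A peak in 6 corn fetuses and 0 hay fetuses was found at chr6:109651766-109652585, 28309 bp from a DMR that was higher in hay. A peak in 6 hay fetuses and 1 corn fetus was found at chr5:91325262-91325897, 41296 bp from a DMR higher in corn.

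Flanks were also grouped by the role of the gene given for the DMR. The lipid droplet and phospholipid signalling group (PLIN5-PLIN4, LPAR3 and PLCB4) had 88 flanks, of which 41 (46.6%) had the sign of the DMR, with a median of -0.0060 and 1 at an unadjusted limma p under 0.05. The matrix group had 31 of 58 (53.4%), with 13 of 24 at PCOLCE2, an enhancer of procollagen processing, 10 of 17 at ADAMTSL1 and 8 of 17 at ADAMTS12. The membrane traffic group had 86 of 162 (53.1%), with 8 (4.94%) at an unadjusted limma p under 0.05 beside 3.17% of autosomal regions. Within it, 13 of the 19 flanks of SLC9A9, an endosomal sodium-proton exchanger, had the sign of the DMR, with a median of 0.17, while TBC1D5 had 22 of 47 and a median of -0.012. The group of metabolism and RNA binding had 44 of 77 (57.1%), including 14 of 24 at AASS, an enzyme of lysine breakdown, and 11 of 22 at ALG5, an enzyme of protein glycosylation. MEGF11 and the lincRNA together had 34 of 61 (55.7%), and the 40 DMRs with no gene given a role had 423 of 756 (56.0%). The share over all flanks was 54.8%. Flanks inside a listed gene had the sign of the DMR in 189 of 350 (54%), and flanks outside the gene at such DMRs in 115 of 243 (47.3%), with a median of -0.013. At DMRs without a listed gene the count was 355 of 609 (58.3%). These differences were not tested.

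The DMRs with the most and the fewest flanks were TBC1D5 and a pair without a listed gene. TBC1D5, with 47 flanks, had differences in the direction of its DMR from -0.36 to 0.36. Among the DMRs with flanks of their own, those with the fewest, 6 each, were at chr1:58931007-58931935, higher in hay and with a peak in all 16 fetuses, and at chr8:34921849-34922920, higher in corn. Of their flanks, 4 and 2 had the sign of the DMR. For 20 of the 57 DMRs at least 1 flank differed as much as the DMR in its direction. Over all flanks, 24 (1.997%) differed at least as much as the median DMR in either direction, beside 1.74% of autosomal regions.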

How the data were processed

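LD muscle of 16 fetuses, 8 per diet, was assayed by methyl-binding domain enrichment and sequencing. Per the labels and the submitters' processing notes, reads were trimmed with Trimmomatic 0.33, aligned to Oar_v3.1 with BWA 0.7.15 and freed of duplicates with Picard 1.107, and the authors called peaks per fetus with ChIPseeqer, without pooling. The authors deposited 1 value per peak, read here as a p-value because it lies between 0 and 0.1352. Read counts and depths were not analysed here. Intervals and p-values come from the limma fit, which combines the spread between fetuses at a region with that of all regions. They are thus not the spread at the region alone.

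From the deposited p-values the score was −log10 p (p of 0 set to 1e-100). The highest score of a fetus in a consensus region was divided by a factor (0.7647 to 1.383), a median ratio taken over the 88488 regions found in all 16 fetuses, and taken as log2(score + 1). All 512238 consensus regions were fitted with limma 3.58.1 (lmFit, eBayes with trend; R 4.3.3) and Benjamini-Hochberg adjustment, with a threshold of 0.1. The step was tried on simulated data in which a constant was added to every value of a group. Differences here are often peaks missing in some fetuses, so that trial does not show how well such differences are found. Python 3.11.15, numpy 2.4.6, pandas 2.3.3, scipy 1.17.1 and matplotlib 3.10.9 were used for the rest.

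DMR and gene positions came from the supplementary list of DMRs, whose fold changes and significance were not used; the direction of each DMR was taken from its own peaks. The DMRs were chosen by the study on this contrast in these fetuses, and the members and lists here were chosen with earlier results of these data known. The whole set of autosomal pairs served as background, in place of random regions. Regions were named by rule: the nearest flanks of the 5 DMRs taken to bisulfite sequencing, the 5 with the smallest limma p in each direction, those between 2 DMRs, the 5 with the widest gap in fetuses with a peak, and the DMRs with the most and the fewest flanks. The alternatives tried were scaling, the pseudocount, filters on peaks and fetuses, merging, presence or summed scores, the number of peaks as covariate, the distance limit, and leaving out fetuses. The genome sequence of Oar_v3.1 was not used here.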

Additional observations from a re-analysis of the deposited data

Results flagged for a closer look

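Dixon's test for a fetus far from the others was run on 75 groups of 8 fetuses, and 19 were flagged, all in named flanks. Its rate of about 1 in 20 by chance holds for normally spread values. A lone peak among zeros is always flagged, so the count cannot be compared with that rate. In 10 of the 19 the fetus was the only one of its diet with a peak, so that the flag records a single peak. These were hay 15 with 1.244 before LPAR3 and 1.011 between the chromosome 7 DMRs, hay 16 with 1.285 and corn 4 with 1.495 before PLCB4, corn 2 with 1.091 after PLCB4, corn 7 with 1.24 after LPAR3 and 1.324 at chr5:91325262-91325897, and, between the chromosome 6 DMRs, hay 3 with 1.218, hay 8 with 1.447 and corn 4 with 1.761.

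In 4 groups a single fetus lacked the peak of the others and had 0. These were hay 15 at the flank before ADAMTS12, hay 11 at chr14:6485265-6486443, hay 12 at chr6:43411241-43412252 and corn 14 at chr6:36878768-36879653. In the other 5 every fetus of the group had a peak. Hay 16 was lowest within PLIN4, at 1.444. Hay 3 was lowest at chr6:36865356-36867174, at 1.558, and hay 10 highest in NBEA, at 2.485. Corn 9 was lowest in TBC1D5, at 0.9738, and corn 14 highest at chr6:43411241-43412252, at 2.037.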

How the results depend on the processing

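The share of flanks with the sign of the DMR, 54.8%, was 50.7% without scaling, 51.7% by presence of a peak and 58.1% without hay 10 and hay 11, the fetuses with the fewest regions (left out together after the data were seen). The share by presence is not exact. Rounding in the fit gave a sign to some flanks with a peak in equally many hay and corn fetuses. Under the other alternatives it was 52.5% to 54.9%, and leaving out 1 fetus at a time gave 53.7% to 57.3%. The median, 0.0255, ran from 0 to 0.0518, and from 0.0167 to 0.0382 with 1 fetus left out. No alternative gave a flank with an adjusted p under 0.1 (limma). The 39 flanks at an unadjusted p under 0.05 became 64 without scaling or with the number of peaks as covariate, 68 without hay 11 and 102 without hay 10 and hay 11, where the autosomal shares were 5.70%, 4.99%, 5.32% and 8.40%. The 3 autosomal calls became 44 without scaling, 39 with the number of peaks as covariate, 29 without corn 4, 49 without hay 11, 1 to 11 without any other single fetus, 0 to 11 under the other alternatives and 647 without hay 10 and hay 11, when the smallest adjusted p of a named flank was 0.147. No paired analysis of hay with corn was possible, because the hay and corn fetuses came from different dams. The causes were not tested, and the number of fetuses and the unknown depth limit what a missing peak can show.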
